A study of Mus musculus with 28 samples.

Results

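The regions described here carried an H3K27ac peak in untreated NMuMG cells and had no called peak after 24h of TGF-β, whether or not MEK was inhibited. Overlapping peaks of 15 H3K27ac ChIP-seq libraries were merged into 89050 regions, and a region was taken where a peak was called in 3 of 3 libraries at 0h, in 0 of 3 at 24h and in 0 of 3 at ERKi 24h. The 807 regions were thus chosen by their peak calls at 0h, 24h and ERKi 24h, and they were 2.28% of the 35409 regions with a peak in 3 of 3 libraries at 0h. Values from those 9 libraries are given as a description. The calls of the 6 libraries of 4h and ERKi 4h were not part of the rule, but their peaks entered the merging that set the borders of the regions. With regions merged from the other 9 libraries alone, 850 regions met the rule.

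NMuMG is a mouse mammary gland epithelial cell line, grown here as the subclone NMuMG/E9, so all groups represent 1 clone. The 0h cells were untreated, the 4h and 24h cells received TGF-β at 2 ng/ml with DMSO, and the cells named ERKi 4h and ERKi 24h received the same TGF-β with the MEK inhibitor UO126 at 25 µM, given 30 min before TGF-β. Each of the 5 groups had 3 replicate libraries, and no group analysed here received UO126 without TGF-β. The sources used here do not say that the replicates were separate cultures, so p-values measure the spread between these libraries, which may be technical. At 0h a peak lay at the promoter of Cdh1, Krt8, Krt19 and Grhl2 in 3 of 3 libraries and at that of Epcam, Krt18, Cldn7 and Esrp1 in none, so 4 of 8 epithelial markers had one. None of 4 fibroblast, 4 leukocyte or 4 endothelial markers had a promoter peak in all 0h libraries, and Pdgfra had one in 1 library.

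H3K27ac is the acetylation of lysine 27 of histone H3, a mark of promoters and enhancers that are in use. Enhancers are stretches of DNA, often far from a gene, where transcription factors bind and raise its transcription, and their acetylation can be added and removed within hours. TGF-β drives NMuMG cells through an epithelial to mesenchymal transition (EMT), in which cells give up their junctions and apical side and become motile. TGF-β signals through Smad proteins and also through the kinase cascade of RAF, MEK and ERK. UO126 binds MEK and keeps it from phosphorylating ERK.

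The summits of 8 regions are printed as 201 bases of the plus strand of mm9, to show what kind of DNA lost its peak. The first 3 stood out by fold enrichment at 0h. The next 3 lay in the introns of Zbtb16 and Sh3pxd2a and 32486 bp from the start site of Spry1. Other regions of Zbtb16 and Sh3pxd2a had a higher pileup at 0h than those printed. The last 2, of Glis3 and Ddit4l, stood out by the number of fragments at the summit. Capitals mark the letters of AP-1 (TGANTCA), TEAD (GGAATG), GRHL (AACNNGTT), ETS (CCGGAA), RUNX (TGTGGT) or forkhead (TGTTTNC) factors on either strand.
Frmd6, chr12:71896339-71896539: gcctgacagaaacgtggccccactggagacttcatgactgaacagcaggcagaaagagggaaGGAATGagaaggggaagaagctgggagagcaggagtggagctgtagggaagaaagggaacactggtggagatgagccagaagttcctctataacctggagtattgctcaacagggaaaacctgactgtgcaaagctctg
C1ql3, chr2:13025579-13025779: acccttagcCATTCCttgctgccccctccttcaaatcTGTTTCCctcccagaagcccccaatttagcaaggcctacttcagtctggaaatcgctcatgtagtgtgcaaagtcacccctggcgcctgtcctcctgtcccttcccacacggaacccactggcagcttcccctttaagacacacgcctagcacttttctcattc
Rplp1, chr9:61626135-61626335: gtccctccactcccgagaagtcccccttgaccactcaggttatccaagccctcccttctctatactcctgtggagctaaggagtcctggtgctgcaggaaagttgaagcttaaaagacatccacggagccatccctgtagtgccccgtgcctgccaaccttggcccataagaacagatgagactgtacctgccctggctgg
Zbtb16, chr9:48603364-48603564: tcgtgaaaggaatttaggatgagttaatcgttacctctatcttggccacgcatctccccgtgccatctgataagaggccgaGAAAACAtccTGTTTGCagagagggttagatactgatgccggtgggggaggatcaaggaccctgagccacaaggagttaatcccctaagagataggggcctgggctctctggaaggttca
Sh3pxd2a, chr19:47462225-47462425: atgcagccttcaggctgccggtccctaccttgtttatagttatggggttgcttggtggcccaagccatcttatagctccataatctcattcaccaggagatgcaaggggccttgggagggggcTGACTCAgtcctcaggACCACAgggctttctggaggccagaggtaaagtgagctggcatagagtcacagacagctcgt
Spry1, chr3:37571388-37571588: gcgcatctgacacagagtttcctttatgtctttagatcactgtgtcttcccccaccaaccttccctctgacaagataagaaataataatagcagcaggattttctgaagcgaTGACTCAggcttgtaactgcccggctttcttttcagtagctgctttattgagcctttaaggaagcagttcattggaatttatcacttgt
Glis3, chr19:28642887-28643087: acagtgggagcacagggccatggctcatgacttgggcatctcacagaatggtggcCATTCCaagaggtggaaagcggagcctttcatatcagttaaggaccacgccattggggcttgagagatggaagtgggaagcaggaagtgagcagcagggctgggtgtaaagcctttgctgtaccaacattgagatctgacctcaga
Ddit4l, chr3:137376178-137376378: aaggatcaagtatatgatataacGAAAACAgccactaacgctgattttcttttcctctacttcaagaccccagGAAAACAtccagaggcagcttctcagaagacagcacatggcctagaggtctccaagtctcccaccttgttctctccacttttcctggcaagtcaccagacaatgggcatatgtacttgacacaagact
The windows of Frmd6, C1ql3 and Glis3 held TEAD letters, and those of Sh3pxd2a and Spry1 held AP-1 letters. Those of Zbtb16 and Ddit4l held forkhead letters in 2 places each. The C1ql3 window also held forkhead letters, and the Sh3pxd2a window also held RUNX letters. The Rplp1 window held none of the 6. Over all 807 windows, TEAD letters were in 11.5%, AP-1 letters in 5.33% and forkhead letters in 17.1%. The 8 windows are thus not typical in their motif letters. A match of letters is a description and not a binding site.

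The regions were weak at 0h. Each peak was given its percentile by pileup, the number of fragments at the summit, among the peaks of its own library, with 0 for no peak. The median region stood at 25.5, 17.4 and 27.4 in 0h replicates 1, 2 and 3, against 62.3, 59.7 and 63.0 for all regions with a peak in 3 of 3 libraries at 0h. In fragments, the median was 26, 19 and 24, against 85, 52 and 61. By fold enrichment, the ratio of that pileup to the local background, the median percentile was 38.5, 35.1 and 44.9, against 64.7, 63.9 and 67.5. The regions were also narrower, with a median of 612 bp against 1262 bp. In the weakest 0h library of each region the median -log10 q was 4.74, with 455 regions below 5 and 53 at 10 or more, and the lists end at a -log10 q between 1.30 and 1.60. The 310 regions with the peak lost at 24h but back in 3 of 3 libraries at ERKi 24h were also weak at 0h. Their median percentile by pileup was 33.0, 22.9 and 31.8 in 0h replicates 1, 2 and 3. Their median width was 920.5 bp, and their median -log10 q in the weakest 0h library was 5.90. Each value was above that of the regions described here, but a low level at 0h was not particular to the latter. The bulk libraries cannot tell a loss in all cells from a loss in some of them, and a missing peak says only that none was called.

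The frequency of such regions followed their level at 0h, which the rule used. Among the 3161 regions with a mean 0h percentile of 20 or less, 358 (11.3%) lost the peak at 24h and ERKi 24h. The share was 4.30% of 6417 regions between 20 and 40, 1.49% of 7434 between 40 and 60, 0.604% of 8775 between 60 and 80 and 0.0935% of 9622 above 80, where 9 regions lay. The 3 lowest by mean percentile lay in an intron of Tbc1d8 (2.43 ± 1.98), near Nnmt within an intron of Zbtb16 (2.46 ± 1.95) and near Ezr (2.85 ± 1.41; SD, n = 3 each). Their pileups at 0h were 12 to 14 fragments.

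Regions that just missed the rule at 24h or ERKi 24h had higher median 0h levels than those inside. Regions that just missed it at 0h had a lower one. The 331 regions with a peak in 1 of 3 libraries at 24h and none at ERKi 24h had a median percentile of 24.1 over the 0h libraries that called them, and so did the 418 with none at 24h and 1 of 3 at ERKi 24h, against 22.7 inside. The 310 regions with 2 of 3 at ERKi 24h had 27.7. The 1457 regions with a peak in 2 of 3 libraries at 0h and none at 24h or ERKi 24h had 16.4. At 4h these 4 sets were called in 62.8, 58.6, 69.4 and 21.5% of libraries, in that order, and at ERKi 4h in 49.0, 69.4, 82.4 and 23.9%.

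Fewer of these regions had a called peak at 4h, with and without the inhibitor. A peak was called in 28.1, 39.0 and 70.1% of the regions in the 3 replicates at 4h, a mean of 45.8% ± 21.8 (SD, n = 3). Under ERKi at 4h it was called in 33.7, 48.2 and 59.9%, a mean of 47.3% ± 13.1 (SD, n = 3). The groups overlapped, and their difference of 1.49 percentage points was less than the SD of either group. Within replicate numbers the difference ran from -10.3 to 9.17 points, and it turned to -7.33 without 4h replicate 1, -1.88 without 4h replicate 2 and -4.81 without ERKi 4h replicate 3. Over all regions with a peak in 3 of 3 libraries at 0h, the share was 94.9% ± 2.55 at 4h and 94.5% ± 1.56 under ERKi (SD, n = 3).

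Replicate 3 called the most of these regions in both groups, with 566 at 4h and 483 at ERKi 4h, against 227 to 389 in the other libraries. It also had the longest peak lists, 66385 and 64815 peaks against 50445 to 57660. With every list cut to the length of the shortest, the difference between ERKi 4h and 4h was -2.25 points over the 1289 regions that then met the rule. The part of list length in the shares of the single libraries was not tested.

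**Figure D1:**
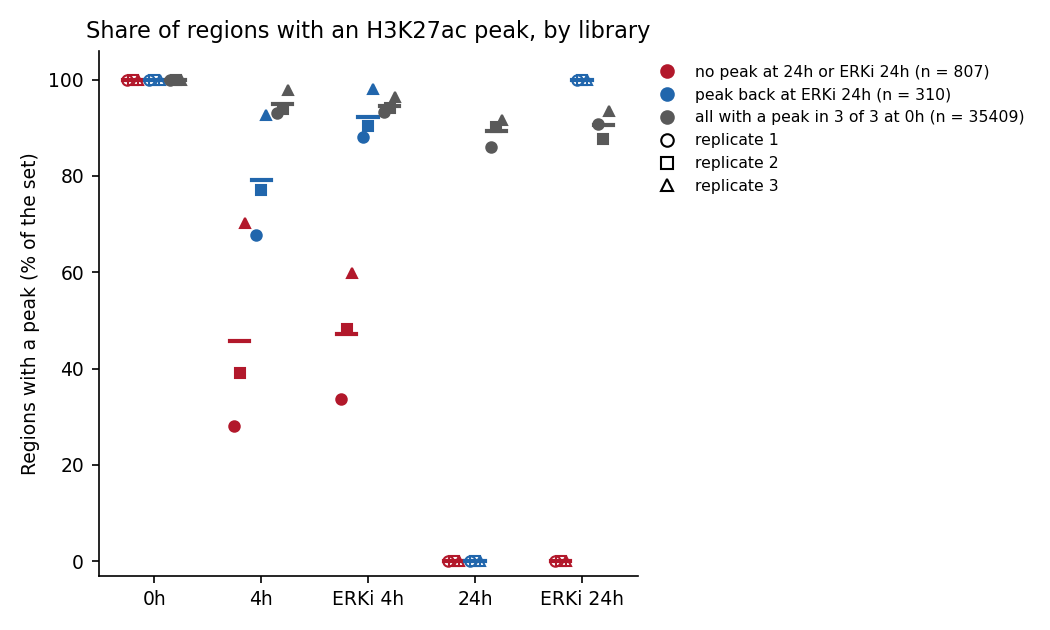
Share of regions with an H3K27ac peak in each library (% of the set, vertical axis) for the 807 regions without a peak at 24h and ERKi 24h, the 310 with the peak back at ERKi 24h and all 35409 with a peak in 3 of 3 libraries at 0h. Lines are means of 3 libraries, symbols are replicates, and open symbols in colour are libraries that chose the set. At 4h the 807 regions spread from 28.1 to 70.1%, with ERKi 4h inside that range.

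The 4h shares were lower than those of other regions at every level of 0h pileup. Up to a mean 0h percentile of 20, the regions were called in 37.7% of 4h libraries and 38.4% of ERKi 4h libraries, and the remaining regions of that level in 78.6 and 79.3%. Between 20 and 40, the values were 52.7 and 57.0% against 93.1 and 92.4%. Between 40 and 60, they were 50.2 and 50.8% against 97.2 and 96.5%, and between 60 and 80, 54.1 and 51.6% against 98.8 and 98.4%. The remaining regions include those that kept the peak at 24h, so the contrast is a description. The levels are of pileup alone, and the sets were not matched by fold enrichment.

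Where a peak was still called at 4h, its median percentile was 12.8, 13.4 and 18.8 in replicates 1, 2 and 3, and 13.5, 16.4 and 18.2 under ERKi. Each of these values lay below the 0h median of the same replicate number. The comparison covers only the regions that still had a peak in that library, 227 to 566 of 807. The rule required a peak at 0h and none at the last time point, which favours such a fall. The 310 regions with the peak back in 3 of 3 libraries under ERKi had 33.0, 22.9 and 31.8 at 0h. They had 19.45, 18.4 and 30.5 at 4h. At ERKi 4h they had 26.3, 27.4 and 38.6, below 0h in replicate 1 alone. All regions with a peak in 3 of 3 libraries at 0h had 62.3, 59.7 and 63.0. At 4h these stood at 61.8, 63.4 and 66.4, below 0h in replicate 1 alone, and at ERKi 4h at 64.3, 64.2 and 66.0.

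Few regions were called alike in all libraries at 4h. No peak was called in 87 regions (10.8%) in any of the 6 libraries of 4h and ERKi 4h, against 0.362% of all regions with a peak in 3 of 3 libraries at 0h, and 72 (8.92%) had one in all 6, against 85.6%. The other 648 (80.3%, against 14.0%) were called in 1 to 5. More ERKi 4h than 4h libraries called the peak in 247 regions (30.6%), fewer in 216 (26.8%), and as many in 344 (42.6%), against 5.53, 5.79 and 88.7% of all. The 87 regions without a peak at 4h had a median 0h percentile of 16.4 by pileup and 34.7 by fold enrichment and a width of 427 bp, and the 72 called throughout had 34.0, 50.7 and 836.5 bp.

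The 310 regions with the peak back at ERKi 24h are set beside them. These restored regions had a peak in 3 of 3 libraries at 0h, 0 of 3 at 24h and 3 of 3 at ERKi 24h. They were called in 79.1% ± 12.5 at 4h and 92.2% ± 5.25 at ERKi 4h (SD, n = 3), higher under ERKi by 5.48 to 20.3 points within each replicate number. Of them 161 were called in all 6 libraries and 1 in none. The difference between the sets was not tested.

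**Figure D2:**
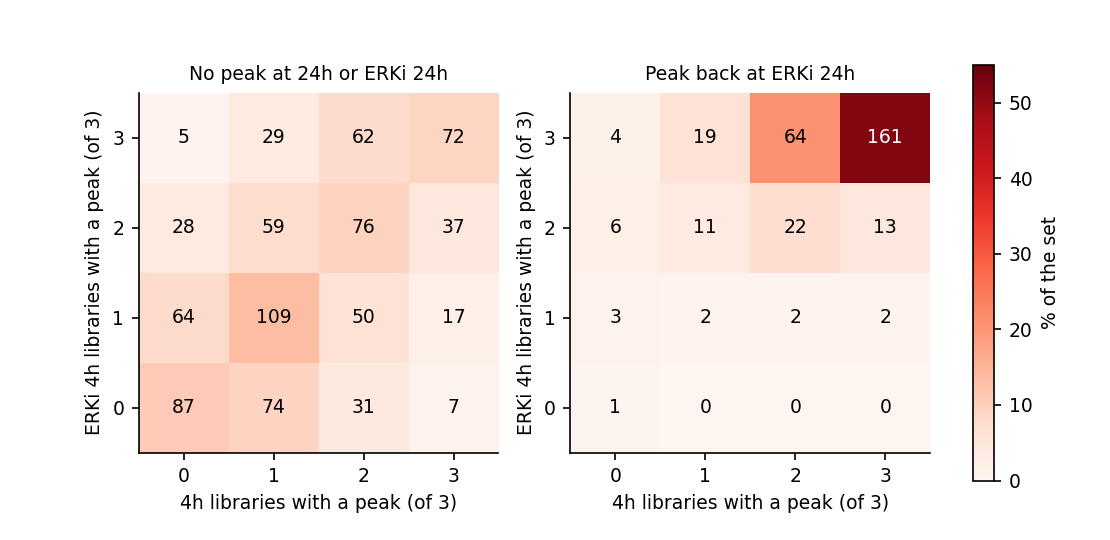
Number of regions (in each cell) by how many of the 3 libraries at 4h (horizontal axis) and of the 3 at ERKi 4h (vertical axis) had a peak, with colour for the share of the set in %. The 807 regions without a peak at 24h or ERKi 24h (left) spread along the diagonal, with 87 in the lower left and 72 in the upper right cell, and 161 of the 310 restored regions (right) lie in the upper right cell.

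Read one by one, few regions separated ERKi 4h from 4h. Of the 720 regions with a peak in 1 or more of the 6 libraries, every ERKi 4h library exceeded every 4h library by percentile in 20 (2.78%), and the opposite held in 16 (2.22%). The background was 3.68% and 3.52% of all 62300 regions with a peak at 4h or ERKi 4h, and 4.78% and 5.04% of the 35281 with a peak in 3 of 3 libraries at 0h. Both shares of the 807 regions lay below both backgrounds under this setting, though not under every other. A region could count only where every library of the higher group had a peak. This held in 168 of the 807 (20.8%) at ERKi 4h and in 133 (16.5%) at 4h. Of all regions with a peak in 3 of 3 libraries at 0h, it held in 89.7% for each group. The lower shares therefore do not say that the 807 regions differed less between the groups. Among 309 restored regions, 44 (14.2%) were higher under ERKi and 0 lower. The mean difference, ERKi 4h minus 4h, was above 0 in 373 of the 720 regions and below 0 in 347, with a median of 0.181 percentiles against 0.753 over all regions tested and 7.88 over the restored regions.

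The two-sided exact permutation test of 3 libraries against 3 has 20 arrangements and cannot give a p below 0.1. Its lowest Benjamini-Hochberg adjusted p over the 62300 regions was 1, with 0 regions at an unadjusted p under 0.05. With the replicate number as a block, ERKi 4h exceeded 4h in all 3 numbers in 77 of the 720 regions (10.7%) and fell below it in 42 (5.83%), against 16.9% and 11.3% of all regions. The count higher under ERKi was 69 without 4h replicate 3 (10.4% against 13.4% of all regions), 88 without ERKi 4h replicate 1 (12.4% against 7.80%) and 37 without ERKi 4h replicate 2 (5.34% against 8.999%). The count lower under ERKi was 64 without 4h replicate 1 (8.93% against 7.62%) and 38 without 4h replicate 2 (5.38% against 7.22%). It was 29 without ERKi 4h replicate 2 (4.19% against 4.91%) and 29 without ERKi 4h replicate 3 (4.19% against 8.17%). The share thus passed that of all regions without ERKi 4h replicate 1 in one direction and without 4h replicate 1 in the other. The library number in the peak names of ERKi 4h replicate 1 is out of the order of the others. Without that library, the difference in the share called was 8.26 points.

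The 5 regions with the largest difference in each direction show what lay behind these counts. A region in an intron of the noncoding gene Pvt1 (chr15:62115077-62115847) lay 296385 bp from the start site of Myc, the growth-promoting transcription factor. It held 75, 60 and 75 fragments at 0h, no peak in any 4h library and 43, 48 and 46 fragments at ERKi 4h. A region near Dsg2, a desmosomal cadherin (chr18:20710719-20711117), held 39, 28 and 45 fragments at 0h, no peak at 4h and 43, 34 and 61 at ERKi 4h. In both, no 4h library had a peak and every ERKi 4h library did. By percentile, the Myc region stood at 46.2, 59.5 and 50.95 at ERKi 4h, against 58.5, 65.45 and 71.1 at 0h. The Dsg2 region stood at 46.2, 45.2 and 61.8, against 38.2, 34.1 and 51.4. Within each replicate number, ERKi 4h was thus below 0h in the first and above it in the second. A region in an intron of Asap2 (chr12:21173557-21174133) likewise had no peak at 4h, with 26, 26 and 22 fragments at 0h and 27, 21 and 21 at ERKi 4h. The others were in introns of Slc6a6, the taurine transporter (chr6:91655297-91655781; a peak in replicate 2 alone at 4h, of 36 fragments, and 47, 49 and 62 at ERKi 4h), and of Anxa4, an annexin that binds membranes with calcium (chr6:86741313-86741890; no peak, 53 and 62 against 71, 53 and 67).

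In the opposite direction, a region in an intron of Rilpl1 (chr5:124958973-124959409) held 141, 89 and 119 fragments at 0h and 57, 41 and 86 at 4h, and no ERKi 4h library had a peak. An intergenic region nearest to Zswim6 (chr13:108467914-108468327) likewise held 93, 69 and 103 fragments at 0h, 46, 39 and 54 at 4h and no peak at ERKi 4h. Near Ctsh, which encodes a lysosomal cathepsin (chr9:89933716-89934329), 82, 56 and 103 fragments at 4h stood against no peak, 43 and no peak. In an intron of Ros1, a receptor tyrosine kinase (chr10:51896390-51896993), 57, 36 and 66 stood against 18, no peak and 18. In an intron of Usp48, a deubiquitinase (chr4:137207092-137207781), 36, 28 and 39 stood against no peak, no peak and 18. Each of the 10 regions has an exact permutation p of 0.1, the smallest possible. Of the 20 regions higher under ERKi, 2 lay within 1000 bp of a persistent region, one with a peak in every library of 0h, 24h and ERKi 24h, and of the 16 lower, 4 did.

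Pileup and fold enrichment picked out different regions. By mean 0h percentile, 115 lay above 50 by pileup and 261 above 50 by fold enrichment, and 2 lay above 50 by both. Of the 115 with high pileup, 58 lay within 1000 bp of a persistent region, and of the 261 with high fold enrichment, 0 did. The 104 regions within 1000 bp had a median pileup percentile of 53.1 and a fold percentile of 11.4, with a local background of 19.4 fragments. The 184 regions over 50 kb away had 18.01 and 48.9, with a background of 3.19 fragments. Over all, 12.9% of the regions lay within 1000 bp of a persistent region, against 28.6% of all regions with a peak in 3 of 3 libraries at 0h and 10.0% of the restored ones.

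**Figure D3:**
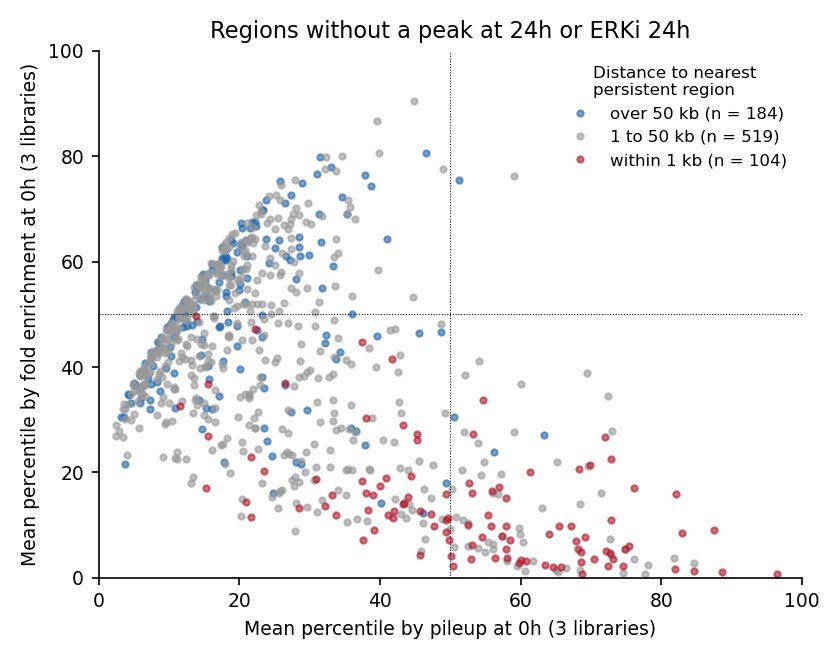
Mean percentile of each of the 807 regions over 3 libraries at 0h, by pileup (horizontal axis) and by fold enrichment (vertical axis), coloured by the distance to the nearest persistent region. Dotted lines mark 50. The 104 regions within 1 kb of a persistent region run along the lower right, and 2 regions lie above 50 on both axes.

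The shares called at 4h were similar near and far from persistent regions. Regions within 1000 bp of a persistent region were called in 46.2% of 4h libraries and 42.3% of ERKi 4h libraries, those from 1000 bp to 50 kb away in 46.6 and 49.1%, and those farther away in 43.3 and 44.8%. The spread between replicates within each class was larger than these differences, for example from 24.5 to 70.7% at 4h for the farthest class. Without the regions within 1000 bp, the 703 that remained gave a difference of 2.28 points between ERKi 4h and 4h and 18 and 12 regions without overlap.

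The persistent regions beside them had a lower mean level at 24h, with overlap between libraries. The 103 persistent regions nearest to a region within 1000 bp had a median width of 1493 bp, against 1391 bp for all 27708. Their median percentile was 76.3 ± 5.36 at 0h, 71.0 ± 6.51 at 4h, 65.6 ± 5.47 at 24h, 66.4 ± 3.53 at ERKi 4h and 65.8 ± 5.33 at ERKi 24h (SD over 3 libraries). The single libraries ran from 70.9 to 81.6 at 0h, from 61.8 to 71.8 at 24h and from 60.9 to 71.5 at ERKi 24h. All persistent regions together stood between 69.6 and 72.2 in every group. Without overlap, 0h exceeded 24h in 46 of the 103 and 24h exceeded 0h in 8, where all persistent regions gave 11.2% and 16.5%. Likewise 0h exceeded ERKi 24h in 37 and the reverse held in 13, with 11.9% and 20.4% over all. These comparisons share the 0h libraries and use the contrasts that chose the neighbouring regions, so they carry no test.

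The 10 regions with the highest pileup at 0h had low fold enrichment. Their mean pileup percentiles ran from 78.2 to 96.5 and their mean fold percentiles from 0.7001 to 16.0, with fold enrichments of 1.496 to 3.22, and 7 lay within 1000 bp of a persistent region. The highest lay in an intron of Glis3, a Krüppel-like zinc finger factor (chr19:28642702-28643193; ENSMUSG00000052942), 637 bp from a persistent region. It held 234, 169 and 249 fragments at 0h over a background of 148.5, 98.9 and 124.6. At 4h it had no peak in replicate 1 and 127 and 201 fragments in replicates 2 and 3, and at ERKi 4h it had a peak in replicate 3 alone, of 217 fragments.

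A region upstream of Msh5, which acts in meiotic recombination (chr17:35184099-35184619), was the only one of the 10 in a promoter and held 255, 93 and 127 fragments at 0h. It was called in replicates 1 and 3 of both later groups, with 182 and 152 fragments at 4h and 175 and 149 at ERKi 4h. Near Ddit4l, an inhibitor of mTORC1 signalling (chr3:137376033-137376433), 187, 80 and 131 fragments at 0h were followed by no peak in any of the 6 libraries. Near Rbfox2, a splicing factor (chr15:77164747-77165380), 178, 100 and 143 fragments were followed by 62, no peak and 96 at 4h and no peak at ERKi 4h. The region near Jak2, a cytokine receptor kinase (chr19:29312918-29313382), was called only in replicate 2 at 4h (139 fragments) and ERKi 4h (105). The others lay near Phldb2 and Mgat3 and in introns of Limk2, Anxa4 and Rilpl1. Over the 10, between 0 and 4 of the 6 libraries of 4h and ERKi 4h had a peak.

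The 8 regions with the highest fold enrichment, chosen after their values were seen, had moderate pileup. They had mean fold percentiles of 77.9 to 90.4, fold enrichments of 5.74 to 10.3 and mean pileup percentiles of 31.5 to 46.5. All lay 16121 to 166573 bp from a persistent region and had a peak in at least 3 of the 6 libraries of 4h and ERKi 4h. The highest lay 30062 bp from the nearest start site of Frmd6, a FERM domain protein of the Hippo pathway (chr12:71895560-71896950). It held 46, 36 and 40 fragments at 0h over a background of 4.50, 3.01 and 2.99, then no peak, 21 and 14 at 4h and 14, 22 and 17 at ERKi 4h. The 4h and ERKi 4h libraries overlapped, and every pileup called there lay below those at 0h, in fragments and by percentile. The region was picked for its high value at 0h, which favours such a fall.

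In an intron of Rsu1, a partner of the integrin-linked kinase complex, a region nearest to C1ql3 (chr2:13025084-13025900) held 44, 33 and 52 fragments at 0h, 20, 25 and 34 at 4h and 16, 14 and 16 at ERKi 4h. It was the only one of the 8 in which the 4h and ERKi 4h libraries did not overlap, with 4h higher by 18.3 percentiles (exact permutation test, p = 0.1). An intergenic region 136110 bp from Rplp1, a ribosomal stalk protein (chr9:61625546-61627305), held 38, 27 and 43 fragments at 0h, 15, 18 and 27 at 4h and no peak, 20 and 29 at ERKi 4h. In an exon of Dct, the melanin enzyme dopachrome tautomerase (chr14:118449901-118451489), 33, 22 and 40 fragments were followed by 18, 14 and 33 at 4h and 18, 20 and 21 at ERKi 4h. In an intron of Pde8b, a cAMP phosphodiesterase (chr13:95883238-95884357), 30, 27 and 27 fragments were followed by no peak, 17 and 21 and by 14, 18 and 30. The remaining 3 lay near Gm15319, Gcap14 and Retnlb.

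**Figure D4:**
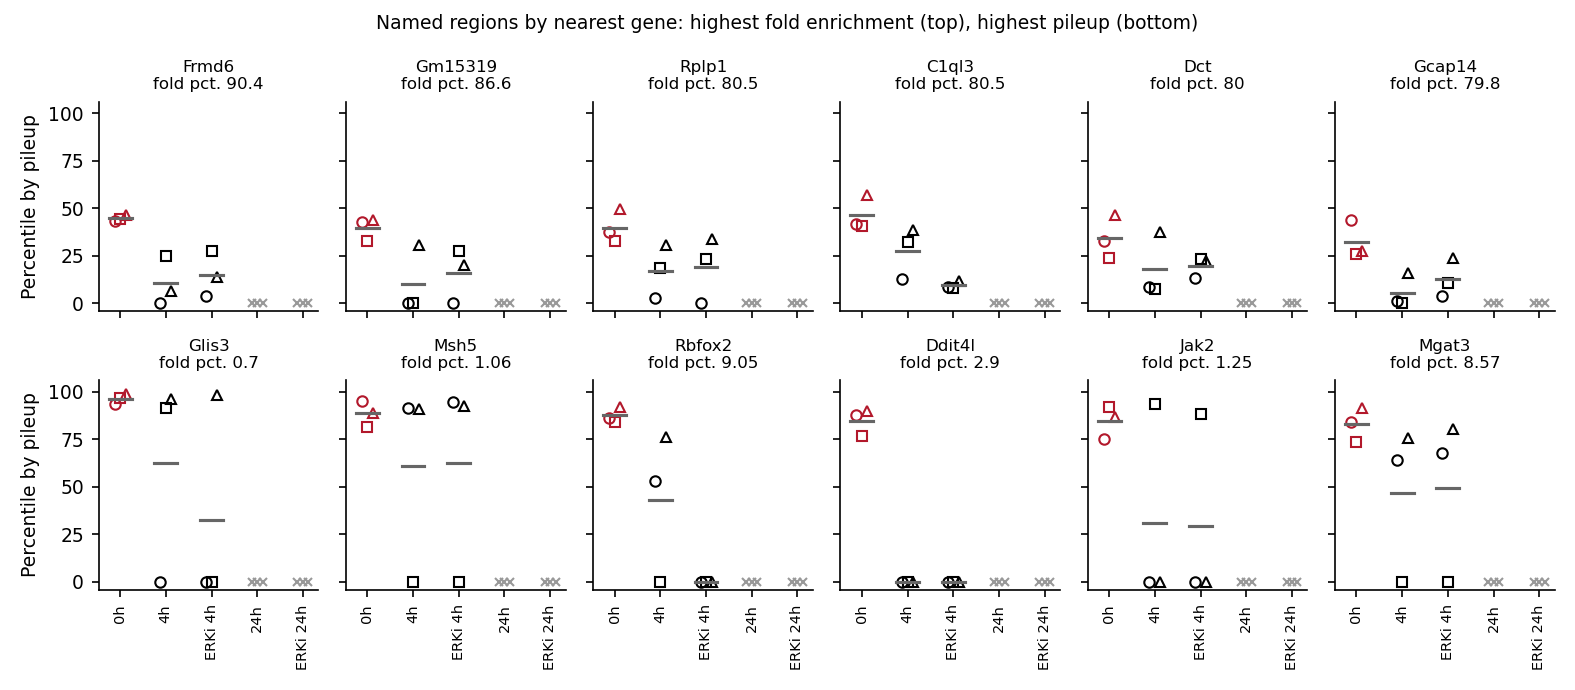
Percentile by pileup (vertical axis) in each library for 12 regions, titled by the nearest gene and the mean fold percentile at 0h, the 6 highest by fold enrichment above and the 6 highest by pileup below. Circles, squares and triangles are replicates 1, 2 and 3, lines are means, and crosses mark 24h and ERKi 24h, where the rule required no peak. In the lower row single libraries keep percentiles above 50 at 4h or ERKi 4h beside others at 0, except for Ddit4l.

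The 807 regions had 682 different nearest protein-coding genes, 3.05% of all 22380 and 5.26% of the 12966 with a region with a peak in 3 of 3 libraries at 0h. One region fell to each of 582 genes, 2 to 86 genes and 3 or more to 14 genes. Another such region lay within 1000 bp for 78 regions and within 50 kb for 184. Zbtb16 (ENSMUSG00000066687; chromosome 9 from 48462416 to 48644050), which encodes the transcriptional repressor PLZF, was nearest to 4. They were 4 of its 5 regions at 0h, and none of the 5 was persistent or restored. Its introns held 5 of the 807, since 1 more was nearer to Nnmt.

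The Zbtb16 regions differed in level among themselves. At chr9:48553483-48554520 the pileup was 63, 24 and 36 fragments at 0h, 31, 18 and 41 at 4h and 24, 23 and 39 at ERKi 4h, with overlap between the groups by pileup. At chr9:48608994-48609790 it was 39, 30 and 32 at 0h, 20, 21 and 30 at 4h and 25, 17 and 26 at ERKi 4h, and the groups at 4h overlapped. At chr9:48602432-48603707, 26, 22 and 20 fragments were followed by no peak, 14 and 22 and by no peak, 16 and 15. At chr9:48592779-48593568, 13, 12 and 19 were followed by a peak in replicate 3 alone, of 12 fragments at 4h and 15 at ERKi 4h.

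Sh3pxd2a (ENSMUSG00000053617; chromosome 19 from 47334664 to 47538901) encodes the scaffold Tks5 of invadopodia, the protrusions with which cells degrade matrix. It was nearest to 4 of the regions, all in its introns, of 7 regions at 0h, with 1 persistent and 1 restored. The widest, of 2247 bp (chr19:47504927-47507173), held 47, 36 and 53 fragments at 0h, 18, 21 and 39 at 4h and 28, 24 and 30 at ERKi 4h. At chr19:47495756-47496873, 37, 27 and 23 fragments were followed by no peak, 11 and 16 at 4h and 13, 18 and 19 at ERKi 4h. The other 2 held 13 to 17 fragments at 0h. No pileup called at 4h in the first 2 regions reached that of the same replicate number at 0h, in fragments or by percentile. The rule used the calls at 0h, which favours such a fall.

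Rnd3 (ENSMUSG00000017144), a small GTPase that acts on the actin cytoskeleton, had 4 of its 21 regions at 0h among the 807, all intergenic and 181210 to 307224 bp from its start site. The nearest of them (chr2:50823152-50823700), 128 bp from a persistent region, held 130, 61 and 80 fragments at 0h, 78, 34 and 76 at 4h and 51, 35 and 65 at ERKi 4h, and was called in all 6 libraries. Sall3 (ENSMUSG00000024565), a spalt zinc finger factor, had 6 of 18 regions, with 8 persistent and 1 restored. One of them (chr18:81809600-81810496) held 27, 29 and 27 fragments at 0h, no peak, no peak and 17 at 4h and 27, 16 and 18 at ERKi 4h, without overlap by percentile between the groups at 4h (exact permutation test, p = 0.1). That was nearly a tie, with ERKi 4h replicate 2 at 13.8 and 4h replicate 3 at 13.76. In fragments the groups overlapped, with 16 and 17 in these libraries. D630013G24Rik had 6 of 12 regions, Zbtb20, a zinc finger repressor, 4 of 15, Krr1, which acts in ribosome assembly, 4 of 10, and Rplp1 3 of 9. A Zbtb20 intron region (chr16:43277809-43278321) held 20, 19 and 20 fragments at 0h, no peak at 4h and 12, 18 and 14 at ERKi 4h, again without overlap (exact permutation test, p = 0.1). Its peak in ERKi 4h replicate 1 stood at percentile 0.6565, near the bottom of that list.

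Genes of 8 lists on EMT and signalling were nearest to 30 of the regions, 2.60% of the 1154 regions with a peak in 3 of 3 libraries at 0h near these genes, against 2.28% over all genes. Of 200 listed genes, 27 had one. The count of genes is not evidence on the lists, since listed genes differ in how many regions lie near them. Junction and polarity genes held 6 of 148 regions at 5 of 28 genes, Shroom3, Dsg2, Jup, Pard3 and Tjp1. In an intron of Shroom3, which drives apical constriction (chr5:93190174-93190498), 115, 57 and 107 fragments at 0h were followed by no peak in any of the 6 libraries. In an intron of Jup, which encodes plakoglobin (chr11:100236665-100237317), 54, 33 and 47 fragments were followed by 33, no peak and 61 at 4h and no peak, no peak and 44 at ERKi 4h.

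Genes of the TGF-β and BMP pathway held 8 of 258 regions at 7 of 30 genes, the ligand genes Tgfb2 and Inhba, the receptor genes Bmpr1b and Tgfbr3, Smad2, Smad3 and the ubiquitin ligase gene Smurf1. The Smurf1 intron region (chr5:145694719-145695218) held 78, 48 and 54 fragments at 0h and had no peak in the 6 libraries. An intergenic region (chr13:16372942-16374840) lay 267904 bp from the start site of Inhba, which encodes a subunit of activins. It held 45, 24 and 30 fragments, then no peak, 12 and 20 at 4h and no peak, 18 and 16 at ERKi 4h. The region in an intron of Tgfb2 (chr1:188498321-188498737) held 27, 19 and 32 fragments, then 21, 21 and 29 and no peak, no peak and 30. In the Inhba and Tgfb2 regions the libraries of 4h and ERKi 4h overlapped.

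ERK pathway genes held 4 of 166 regions at 4 of 34 genes, Egfr, Map2k1, Spry1 and Tgfa. Map2k1 encodes MEK1, a target of UO126. A region in its intron (chr9:64046080-64046826) held 102, 50 and 103 fragments at 0h, 61, 32 and 68 at 4h and 41, 29 and 57 at ERKi 4h. Near Egfr, the EGF receptor (chr11:16601180-16601804), 79, 62 and 74 fragments were followed by 86, 60 and 89 and by 56, 52 and 72, with overlap between the groups. Near Spry1, a feedback inhibitor of receptor tyrosine kinases (chr3:37571175-37571703), 23, 18 and 16 fragments were followed by 14, 13 and 21 and by no peak, 16 and no peak. Of these 3, the regions of Map2k1 and Egfr had a peak in all 6 libraries of 4h and ERKi 4h.

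Wnt and Notch genes held 7 of 169 regions at 6 of 21 genes, Fzd7, Ctnnb1, Hes1, Jag1, Lrp6 and Notch2. An intergenic region (chr9:120666772-120667074) lay 171401 bp from the start site of Ctnnb1, the β-catenin gene. It held 68, 34 and 81 fragments at 0h, no peak, no peak and 54 at 4h and 33, 34 and 61 at ERKi 4h, with overlap. Epithelial transcription factors held 2 of 132, at Grhl1 and Id2. The Grhl1 intron region (chr12:25299669-25300553) held 19, 16 and 15 fragments. The Id2 region (chr12:26050694-26051188) was intergenic, 269930 bp from the start site of Id2, and held 22, 17 and 22. Each was called in 1 library of 4h and 1 of ERKi 4h. EMT transcription factors held 1 of 72, in an intron of Twist2 (chr1:93718562-93718996), with 79, 61 and 84 fragments at 0h, 70, 46 and 75 at 4h and 67, 42 and 90 at ERKi 4h. Matrix, integrin and cytoskeleton genes held 1 of 151 (0.662%), in Itgav, and metabolism and transport genes 1 of 58, in the promoter of Hk2, the hexokinase 2 gene.

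The regions lay away from promoters. A promoter, taken as the 1000 bp before a start site and the 100 bp after it, held the summit of 41 (5.08%), against 21.5% of all regions with a peak in 3 of 3 libraries at 0h, 25.2% of the persistent and 3.55% of the restored ones. Introns held 41.5% and intergenic DNA 50.4%, against 37.7 and 32.0% of all. The median distance to the nearest protein-coding start site was 28239 bp, against 7610 bp for all. Beyond 100 kb of a start site lay 21.7%, against 9.55%. With promoters taken within 2500 bp on either side, 86.3% of the regions and 57.3% of all lay outside them, where the narrower definition gave 94.9 and 78.5%.

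The sequences at the summits had less GC than those of all distal regions and more often held no CG, and the same held for the restored regions. Outside promoters, the median GC content of the 201 bp windows was 46.8% for 766 regions, 50.8% for all 27793 and 51.7% for the 20732 persistent ones, and 20.1% held no CG, against 12.2 and 10.1%. The letters GGGCGG of SP and KLF factors were in 2.74%, against 11.2% of all, and those of ETS factors in 2.48% against 4.37%. Forkhead letters were in 17.5% against 15.5%, GATA letters (AGATAA) in 11.1% against 8.28%, C/EBP letters (TTGCNNAA) in 9.14% against 6.62%, and SOX letters (ACAATG) in 10.1% against 8.22%. HNF1 letters (GTTAATNA) were in 2.22% against 1.34%.

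The letters of AP-1 were in 5.61% of the distal windows against 6.43% of all, and those of TEAD in 11.9% against 10.8%. RUNX letters were in 13.6% against 13.5%, GRHL letters in 3.66% against 2.60%, SMAD letters (CAGACA) in 17.1% against 18.5% and STAT letters (TTCNNNGAA) in 6.14% against 5.92%. E-box letters (CAGGTG) were in 16.5% against 15.8%. The restored regions held 12.0% with E-box and 7.02% with GATA letters, and 6.02% with AP-1. All letters were searched on both strands with overlaps allowed, and 208 of the 807 windows (25.8%) held none of the 15 motifs, NFI (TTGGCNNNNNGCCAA) included, whose letters were in 0. These shares are descriptions, and the part of the lower GC content in them was not tested.

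**Figure D5:**
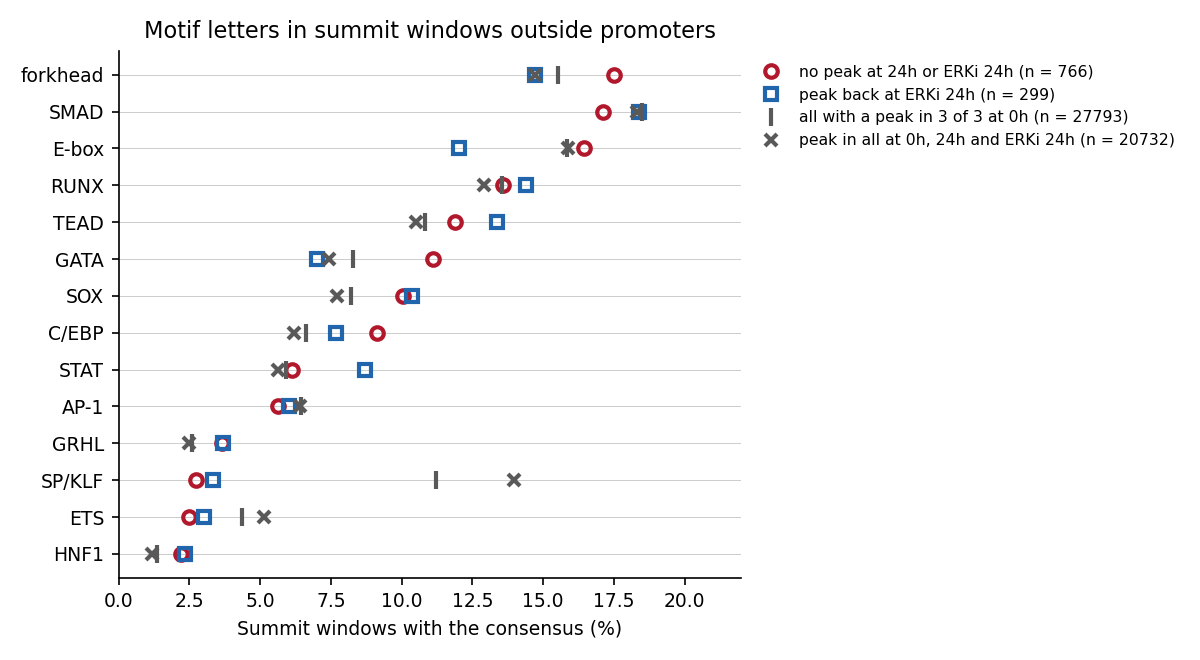
Share of 201 bp summit windows outside promoters (%, horizontal axis) with the letters of each of 14 motifs (vertical axis), for the 766 regions without a peak at 24h or ERKi 24h, 299 restored, 27793 with a peak in 3 of 3 libraries at 0h and 20732 persistent regions. The 766 regions lie to the left for SP/KLF (2.74 against 11.2%) and ETS and to the right for GATA (11.1 against 8.28%). The restored regions also lie to the left for SP/KLF (3.34%) and ETS (3.01%).

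The nearest genes had a promoter peak less often at 24h than at 0h when the promoters that the rule itself had taken were counted. Among all 682 nearest genes, a promoter peak was called in 46.5% ± 2.37 at 0h, 44.0% ± 3.74 at 4h, 42.3% ± 2.46 at 24h, 45.7% ± 1.89 at ERKi 4h and 43.0% ± 1.28 at ERKi 24h (SD, n = 3). Of 259 of these promoters with a peak in 3 of 3 libraries at 0h, 190 (73.4%) had one in all 6 libraries of 24h and ERKi 24h and 11 in none of them. For all 12966 genes near a region with a peak in 3 of 3 libraries at 0h, the share was 55.4% ± 3.74 at 0h, 55.5% ± 2.90 at 24h and 55.7% ± 1.03 at ERKi 24h, and 4834 of 5773 promoters (83.7%) had a peak throughout.

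Among the 642 nearest genes whose own promoter held none of the 807, the share was 43.7% ± 2.59 at 0h, 42.6% ± 3.66 at 4h, 42.0% ± 2.47 at 24h, 44.4% ± 1.45 at ERKi 4h and 42.7% ± 1.15 at ERKi 24h. No group differed from 0h by more than the SD at 0h. Of 226 of these promoters with a peak in 3 of 3 libraries at 0h, 178 (78.8%) had one in all 6 later libraries. Leaving out promoters that lost their peak by the rule raises this share, and the 0h and 24h calls chose the regions, so neither set carries a test.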

How the data were processed

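H3K27ac ChIP-seq of NMuMG cells was read from 15 peak lists, 3 per group. Samples were grouped by their labels. The 10 RNA-seq and 3 input samples were not analysed here. The authors aligned reads to mm9 with bowtie 0.12.9 and ran MACS2 at its defaults on every library separately. The control used is not given in the sources used here. The deposited lists hold the fold enrichment over local background (a ratio), -log10 of p and q values and a score, which was not used. They hold no read totals, so depth is unknown, and each library held 50445 to 69180 peaks. Pileup was solved from fold and -log10 p as a Poisson tail, to within 0.005 for all but 25 of 893719 peaks, and ranked within its library.

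The members and lists were chosen with earlier results of these data known. Peaks overlapping by 1 bp or more were merged. Members were named if they had the 10 highest or 3 lowest mean 0h percentiles, lay nearest to 1 of up to 8 genes with the most members (3 or more), were up to the 3 highest of a list, or were among the 5 largest differences without overlap in each direction. Annotation was GENCODE vM1 of NCBIM37 (mm9), and sequence came from that assembly. Each region was tested with an exact permutation test over libraries. Libraries of 1 replicate number deviated together by percentile in 30 of 30 pairs (correlation 0.109 to 0.500, mean 0.290) and by calls in 16 of 30 above 0.1, so the number was used as a block in an alternative. The other alternatives are given with their values. The steps were tested on simulated data. The work used SciPy 1.17.1 and NumPy 2.4.6 under Python 3.11.15, with tables in pandas 2.3.3 and plots in matplotlib 3.10.9.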

Additional observations from a re-analysis of the deposited data

How the results depend on the processing

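The number of regions without a peak at 24h and ERKi 24h was 807 and ranged from 535 to 1699 over 16 alternatives, of which 13 stayed within 1.5 times. It was 1289 with every list cut to the length of the shortest and 535 with peaks within 1000 bp merged. Over the fits that each lacked 1 library it ranged from 827 to 1699, the highest without 0h replicate 2. The count with ERKi 4h above 4h, 20, was 53 with lists cut to the shortest (4.77% of the regions tested against 4.06% of all), 12 with merging within 1000 bp (2.44% against 4.01%), 12 where peaks had to cover at least 0.5 of the region (1.67% against 2.94%) and 5 for calls in 3 of 3 libraries against 0 of 3 (0.694% against 0.316%). With libraries left out it ranged from 21 to 88. The count with 4h above, 16, was 64 with lists cut (5.76% against 6.22%), 6 with merging (1.22% against 3.73%) and 7 by calls (0.972% against 0.449%), and 17 to 64 with libraries left out. The share thus exceeded that of all regions by calls in both directions and with lists cut in 1 direction, and with 4h above also by coverage (2.79% against 2.65%). Leaving out a library makes non-overlap easier by construction. The difference in the share called at 4h, 1.49 points, stayed within the spread of the replicates in 14 of 14 alternatives and ranged from -7.33 to 13.7, so its direction is not fixed.

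With the replicate block, the counts at 4h were 77 and 42. The share of the regions outside promoters was 86.3% with promoters within 2500 bp. The share with AP-1 letters was 5.33%, and 2.23 and 15.1% with windows of 50 and 250 bp on each side, against 2.48 and 20.2% of all regions with a peak in 3 of 3 libraries at 0h. With start sites within 100 kb only, 23 of 27 listed genes were kept. The alternative without regions within 1000 bp of a persistent region was chosen after seeing the data. Peak lists limit what can be said of levels below a library's own threshold.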
